A study of Homo sapiens with 8 samples.

Results

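The genes described are 9 small GTPases of the RAS family: HRAS and NRAS among the classical RAS proteins, RRAS, RRAS2 and MRAS of the related R-RAS branch, RAP1A and RAP1B, RALA, and RHEB. They were taken by gene symbol from the 22428 genes to which a probe could be assigned, by a rule that uses no measured value, though it was set with earlier results of these data known. A gene with several probes was read at its brightest probe by mean log2 signal over the 8 arrays, and NRAS, RRAS2 and RAP1B each had another probe. All 12 probes were well above background on all 8 arrays. RNA came from 4 groups of 2 arrays each: OVSAHO cells with simvastatin, OVSAHO cells with L-778123, KURAMOCHI cells with simvastatin and KURAMOCHI cells with L-778123. Both are established lines from human ovarian cancer, and each stands for 1 tumor. The sources used here give no concentrations or culture times for these arrays, and untreated cells were not analysed here, so a difference between the drugs can lie in either of them. The sources do not say whether the arrays of a group came from separate cultures, so the p values measure the spread between these arrays, which may be technical.

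RAS family proteins are molecular switches that are active when bound to GTP and inactive when bound to GDP. Exchange factors load them with GTP and GTPase activating proteins switch them off. To reach membranes, most of them need an isoprenoid lipid on a cysteine near the C-terminus, which is a farnesyl group for HRAS, NRAS, RRAS2 and RHEB, and a geranylgeranyl group for RRAS, MRAS, RAP1A, RAP1B and RALA. Simvastatin blocks HMG-CoA reductase and so the synthesis of both lipids and of sterols, whereas L-778123 blocks the prenyltransferases that attach both lipids. The arrays measured transcripts of these genes and not the lipid modification of their products.

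Levels are given as log2 intensity after division by the array's own 75th percentile, which was 324 to 437 in intensity units. A level is comparable between arrays for 1 probe, not between probes. Between 51.8% and 57.5% of probes were well above background, 0 spots were saturated, and the Pearson correlation across probes between replicate arrays was 0.995 to 0.996. All 10 markers of serous carcinoma were above background on every array of both lines, with MUC16 at -3.32 to -2.01 and CDH1 at -2.37 to -2.11 in KURAMOCHI cells. Of 8 leukocyte, endothelial and fibroblast markers, 5 in OVSAHO and 4 in KURAMOCHI cells were above background on no array. PTPRC and VWF were above background on all arrays of both lines, and COL1A1 and COL3A1 on all arrays of KURAMOCHI cells. Their part in the results was not tested. A group with less RNA of a gene per cell and one with fewer cells that express it cannot be told apart in RNA of whole cultures. All arrays lay on 1 slide, where each group had positions of its own, and an effect of position cannot be told apart from one of group.

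In OVSAHO cells, 5 of the 9 genes were higher with simvastatin than with L-778123, namely RRAS, RALA, MRAS, HRAS and RAP1A, and NRAS and RHEB were lower. RRAS2 and RAP1B did not pass the test. In KURAMOCHI cells, MRAS and RALA were higher, NRAS, RAP1A and RHEB were lower, and HRAS, RRAS, RRAS2 and RAP1B did not pass. Passing means that limma gave a p under 0.05 after Benjamini-Hochberg adjustment over the 33753 tested probes. These probes needed to be well above background in some group only, while the 9 genes were so on all 8 arrays. Of these probes, 48.1% passed in OVSAHO cells, against 7 of 9 genes here, and 31.4% passed in KURAMOCHI cells, against 5 of 9, or 3 of 9 without any one KURAMOCHI array. The median log2 difference of the 9 genes, simvastatin minus L-778123, was 0.29 in OVSAHO cells, where it was 0.014 over all tested probes, and -0.068 in KURAMOCHI cells, where it was 0.00096. Only RRAS in OVSAHO cells also reached the 2-fold change that the study's methods ask for, which 11.0% of probes in OVSAHO and 5.60% in KURAMOCHI cells did.

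**Figure D1:**
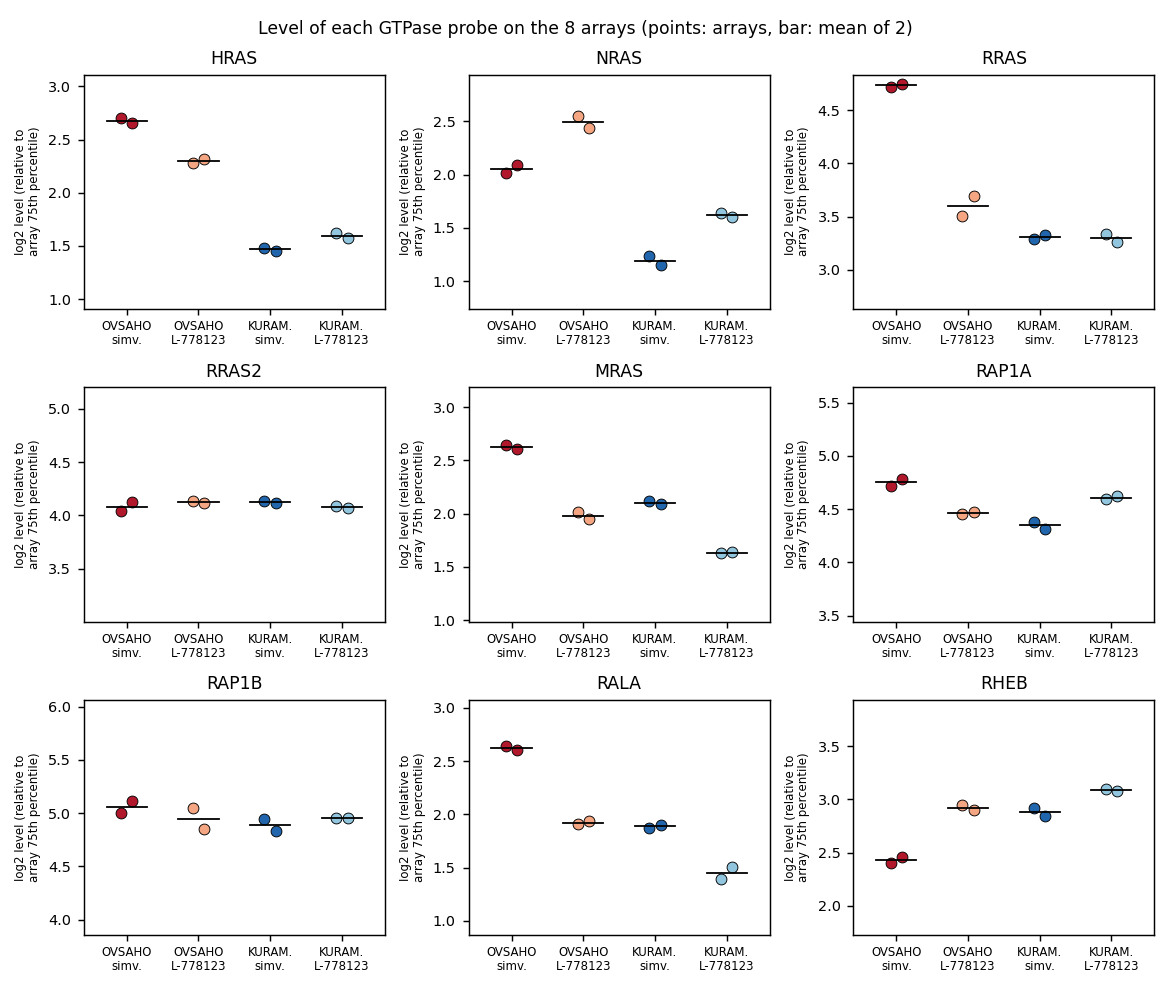
Level of each of the 9 genes on each of the 8 arrays, as log2 intensity relative to the 75th percentile of the array, with 1 point per array, grouped by cell line and drug. RRAS was at 4.72 and 4.75 in OVSAHO cells with simvastatin and at 3.69 or less on all other arrays, while RRAS2 stayed between 4.04 and 4.14 on all 8 arrays.

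HRAS and NRAS, the classical RAS genes, encode switches upstream of the RAF kinases and of PI3K. For HRAS, the levels in OVSAHO cells were 2.70 and 2.65 with simvastatin and 2.28 and 2.32 with L-778123. In KURAMOCHI cells they were 1.48 and 1.45 with simvastatin and 1.62 and 1.58 with L-778123. The drug groups did not overlap in either line, and they were ordered in opposite ways. HRAS was 1.30-fold higher with simvastatin in OVSAHO cells, a log2 difference of 0.38 (standard error 0.055, limma adjusted p = 0.0029). In KURAMOCHI cells the difference of -0.13 did not pass (standard error 0.055, limma adjusted p = 0.130). The HRAS probe was spotted 10 times per array, and the standard deviation of these spots was 0.035 to 0.069 on the log2 scale.

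For NRAS, the levels in OVSAHO cells were 2.02 and 2.09 with simvastatin and 2.55 and 2.44 with L-778123. In KURAMOCHI cells they were 1.23 and 1.15 with simvastatin and 1.64 and 1.60 with L-778123. Both lines thus had less NRAS RNA with simvastatin, and the 4 groups did not overlap. The log2 differences were -0.44 in OVSAHO (standard error 0.069, limma adjusted p = 0.0039) and -0.43 in KURAMOCHI cells (limma adjusted p = 0.00764), which is 1.36-fold and 1.34-fold lower. The dimmer NRAS probe was lower in KURAMOCHI cells, at -0.33 (limma adjusted p = 0.0179), and at -0.16 in OVSAHO cells it did not pass (limma adjusted p = 0.108). The NRAS call in OVSAHO cells therefore rests on 1 of 2 probes.

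The upstream sequences of NRAS, RALA and RHEB are printed because each has 1 entry and its brightest probe passed in the same direction in both lines. MRAS also did, but has 3 entries with different starts and is not printed. They hold the 250 bases before the transcription start in RefSeq, on GRCh38.p14. The sequence of NRAS lies on the minus strand at chr1:114716772-114717021. Capitals mark the letters of motifs searched on both strands: the GC box GGGCGG, the CCAAT box CCAAT, the E-box CACGTG, the core of a cAMP response element TGACG, and the sterol regulatory element TCACNCCAC.

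NRAS: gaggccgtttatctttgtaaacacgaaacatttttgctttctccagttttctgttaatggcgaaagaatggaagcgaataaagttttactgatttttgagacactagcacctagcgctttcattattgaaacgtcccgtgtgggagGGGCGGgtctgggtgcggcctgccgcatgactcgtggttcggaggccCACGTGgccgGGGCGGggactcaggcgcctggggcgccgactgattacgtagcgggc

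This stretch held 2 GC boxes and 1 E-box. Of 35116 RefSeq promoter entries of this length, 42.6% held the GC box, 32.0% the CCAAT box, 6.34% the E-box, 21.2% the cAMP core and 0.883% the sterol element. Entries were given for 8 of the 9 genes, 13 in all, and RRAS had none. The sterol element, through which the SREBP factors act, was in 0 of the 13. A match is a stretch of letters and not a site in use.

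RRAS, RRAS2 and MRAS form the R-RAS branch, and RRAS is known for its part in integrin activity and cell adhesion. For RRAS, the levels in OVSAHO cells were 4.72 and 4.75 with simvastatin and 3.50 and 3.69 with L-778123. In KURAMOCHI cells they were 3.29 and 3.32 with simvastatin and 3.34 and 3.26 with L-778123. Both OVSAHO arrays with simvastatin were above the other 6 arrays, and the KURAMOCHI groups overlapped. RRAS was 2.19-fold higher with simvastatin in OVSAHO cells, at a log2 difference of 1.13 (standard error 0.080, limma adjusted p = 2.19e-04). In KURAMOCHI cells the difference was 0.011 (95% interval -0.19 to 0.21, limma adjusted p = 0.925).

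RRAS2, also called TC21, did not pass between the drugs in either line. Its levels in OVSAHO cells were 4.04 and 4.12 with simvastatin and 4.13 and 4.11 with L-778123, and in KURAMOCHI cells they were 4.14 and 4.12 with simvastatin and 4.08 and 4.07 with L-778123. The drug groups overlapped in OVSAHO cells and did not overlap in KURAMOCHI cells. The log2 difference had a 95% interval of -0.18 to 0.096 in OVSAHO cells, and in KURAMOCHI cells of -0.086 to 0.19. Its other probe gave differences of -0.051 and 0.12, and neither passed.

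MRAS, which acts with SHOC2 in a phosphatase complex on RAF kinases, had levels in OVSAHO cells of 2.65 and 2.60 with simvastatin and 2.01 and 1.95 with L-778123. In KURAMOCHI cells, the levels were 2.12 and 2.09 with simvastatin and 1.63 and 1.64 with L-778123. The drug groups were apart in both lines with simvastatin the higher. The log2 difference was 0.65 in OVSAHO (standard error 0.055, limma adjusted p = 4.23e-04) and 0.47 in KURAMOCHI cells (limma adjusted p = 0.00263), which is 1.56-fold and 1.39-fold.

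RAP1A and RAP1B encode nearly the same protein, a switch for integrins and cell junctions. For RAP1A, the levels in OVSAHO cells were 4.72 and 4.79 with simvastatin and 4.45 and 4.47 with L-778123. In KURAMOCHI cells they were 4.38 and 4.32 with simvastatin and 4.59 and 4.62 with L-778123. The order of the drugs was thus opposite in the lines and no groups overlapped. The log2 difference was 0.29 in OVSAHO (standard error 0.057, limma adjusted p = 0.00879) and -0.26 in KURAMOCHI cells (limma adjusted p = 0.0204). The KURAMOCHI call was lost without any one of the 4 KURAMOCHI arrays, at adjusted p values from limma of 0.0597 to 0.0979 and log2 differences of -0.29 to -0.23.

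For RAP1B, the levels in OVSAHO cells were 5.0 and 5.11 with simvastatin and 5.05 and 4.85 with L-778123, and in KURAMOCHI cells they were 4.94 and 4.83 with simvastatin and 4.95 on both arrays with L-778123. The drug groups overlapped in OVSAHO cells. The range of its 4 group means, 0.17, was smaller than the largest difference between its replicates, 0.20. Neither drug comparison passed, with log2 differences of 0.11 (95% interval -0.11 to 0.33) in OVSAHO and -0.068 (95% interval -0.29 to 0.15) in KURAMOCHI cells, and its other probe did not pass in either line.

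RALA, which directs exocytosis and is switched on through RAS by the RALGDS family, had levels in OVSAHO cells of 2.64 and 2.60 with simvastatin and 1.91 and 1.94 with L-778123. In KURAMOCHI cells the levels were 1.87 and 1.90 with simvastatin and 1.39 and 1.51 with L-778123. The KURAMOCHI arrays with simvastatin lay just under the OVSAHO arrays with L-778123. RALA was higher with simvastatin by 0.70 on the log2 scale in OVSAHO (standard error 0.062, limma adjusted p = 4.85e-04) and by 0.43 in KURAMOCHI cells (limma adjusted p = 0.00499), or 1.63-fold and 1.35-fold. Its upstream sequence lies on the plus strand at chr7:39623322-39623571 of GRCh38.p14 and held 2 GC boxes, 1 on each strand, with none of the other motifs.

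RALA: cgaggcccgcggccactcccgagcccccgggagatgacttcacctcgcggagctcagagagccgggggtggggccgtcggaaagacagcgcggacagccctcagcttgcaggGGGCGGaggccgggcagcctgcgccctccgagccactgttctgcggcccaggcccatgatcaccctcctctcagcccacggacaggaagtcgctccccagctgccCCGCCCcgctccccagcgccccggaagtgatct

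RHEB, the switch that turns on the kinase complex mTORC1, had levels in OVSAHO cells of 2.41 and 2.46 with simvastatin and 2.94 and 2.90 with L-778123. In KURAMOCHI cells its levels were 2.92 and 2.84 with simvastatin and 3.10 and 3.07 with L-778123. Both lines were lower with simvastatin and the drug groups did not overlap. The log2 difference was -0.49 in OVSAHO (standard error 0.059, limma adjusted p = 0.00145), or 1.40-fold, and -0.20 in KURAMOCHI cells (limma adjusted p = 0.0467), or 1.15-fold. The KURAMOCHI call was lost without any one of the 8 arrays, at adjusted p values from limma of 0.0627 to 0.187 and log2 differences of -0.24 to -0.16. Its upstream sequence lies on the minus strand at chr7:151519896-151520145 of GRCh38.p14 and held 4 GC boxes, a pair of which overlap, 2 CCAAT boxes and 1 cAMP core.

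RHEB: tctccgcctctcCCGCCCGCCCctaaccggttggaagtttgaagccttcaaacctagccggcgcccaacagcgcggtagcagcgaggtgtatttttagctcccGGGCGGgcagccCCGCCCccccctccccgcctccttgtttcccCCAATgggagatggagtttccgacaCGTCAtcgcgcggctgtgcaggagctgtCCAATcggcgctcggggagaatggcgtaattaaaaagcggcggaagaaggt

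**Figure D2:**
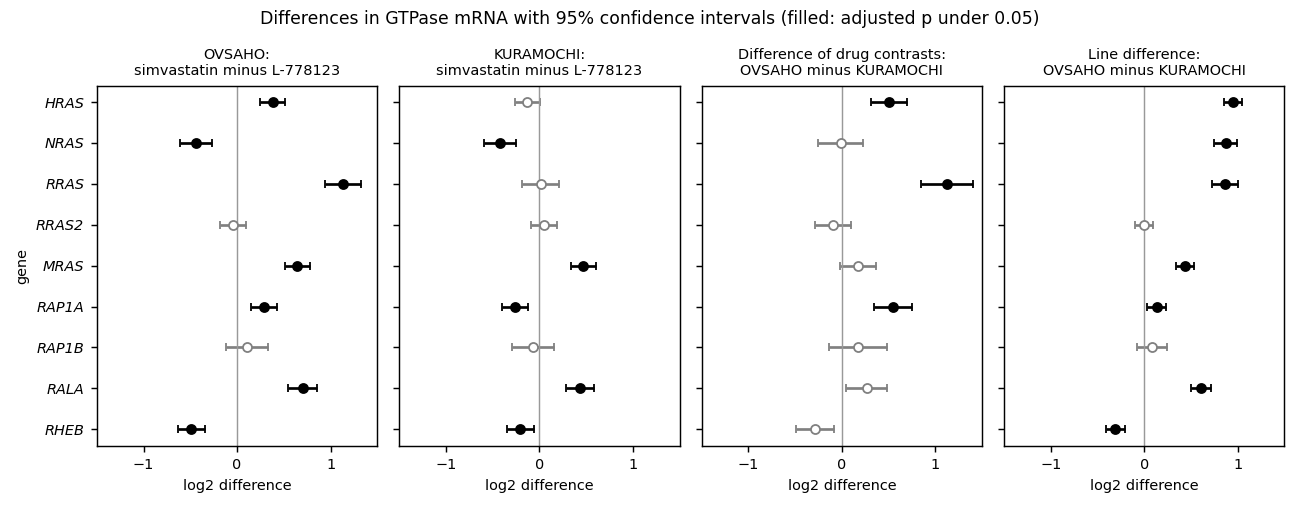
Log2 difference of each gene between simvastatin and L-778123 in OVSAHO and in KURAMOCHI cells, the difference of these contrasts between the lines, and the difference between the lines averaged over both drugs, with 95% confidence intervals from limma, a line at 0 and filled points at an adjusted p under 0.05. RRAS lies at 1.13 in OVSAHO and at 0.011 in KURAMOCHI cells, and NRAS lies below 0 in both.

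The drug contrast itself differed between the lines for 3 of the 9 genes, RRAS, RAP1A and HRAS, all toward higher with simvastatin in OVSAHO cells, where 22.9% of all tested probes passed, 11.2% in this direction and 11.7% in the other. Taken as OVSAHO minus KURAMOCHI, the difference was 1.12 for RRAS (standard error 0.11, limma adjusted p = 0.00245), 0.55 for RAP1A (standard error 0.080, limma adjusted p = 0.00786) and 0.51 for HRAS (standard error 0.078, limma adjusted p = 0.00895). Of these, RRAS also passed the 2-fold threshold, as 7.10% of all tested probes did. With no filter on dim probes, HRAS no longer passed, at a limma adjusted p of 0.0502. The difference did not pass for RALA (0.27, 95% interval 0.050 to 0.48, limma adjusted p = 0.0823), RHEB (-0.29, 95% interval -0.49 to -0.079, limma adjusted p = 0.0603) or MRAS (0.18, 95% interval -0.017 to 0.37, limma adjusted p = 0.164). For NRAS it was -0.012 (95% interval -0.26 to 0.23), for RRAS2 -0.095 (95% interval -0.29 to 0.10) and for RAP1B 0.17 (95% interval -0.14 to 0.49).

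Averaged over both drugs, 6 genes were higher in OVSAHO than in KURAMOCHI cells and RHEB was lower, so that 7 of 9 passed where 77.7% of all tested probes did, 40.2% higher and 37.5% lower. The log2 difference between the lines was 0.95 for HRAS (limma adjusted p = 3.55e-06), 0.87 for NRAS (limma adjusted p = 1.34e-05) and 0.86 for RRAS (limma adjusted p = 2.57e-05). It was 0.60 for RALA (limma adjusted p = 4.11e-05), 0.43 for MRAS (limma adjusted p = 1.08e-04) and -0.31 for RHEB (limma adjusted p = 7.33e-04). None reached 2-fold, as 33.7% of all tested probes did. RAP1A, at 0.13 (limma adjusted p = 0.0244), passed in this fit but not with quantile normalization, at 0.071 (limma adjusted p = 0.150), nor without replicate 2 of OVSAHO cells with either drug, replicate 2 of KURAMOCHI cells with simvastatin or either KURAMOCHI array with L-778123 (limma adjusted p = 0.053 to 0.0789). RRAS2 (0.0011, 95% interval -0.097 to 0.099) and RAP1B (0.082, 95% interval -0.074 to 0.24) did not pass, and the sign of RRAS2 turned under other scalings.

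Over the 4 groups, every OVSAHO array was above every KURAMOCHI array for HRAS, NRAS, RRAS and RALA. For MRAS, KURAMOCHI cells with simvastatin, at a mean of 2.10, lay above OVSAHO cells with L-778123, at 1.98. RALA had its neighbors OVSAHO with L-778123 and KURAMOCHI with simvastatin 0.036 apart, and RHEB had the same pair 0.037 apart with overlapping arrays. OVSAHO cells with simvastatin had the highest mean of HRAS, RRAS, MRAS, RAP1A, RAP1B and RALA and the lowest of RHEB. For RAP1B, the range of the group means, 0.17, was smaller than its largest replicate difference, 0.20. How many of all tested probes were ordered in these ways was not counted. Between the lines, averaged over both drugs, 77.7% of them passed the test, 40.2% higher in OVSAHO cells, which is not a share by order.

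Around these switches, 8 lists of regulators, effectors, trafficking factors and other family members held 103 genes, of which 93 had a tested probe and 83 were above background on all 8 arrays at the probe used. In OVSAHO cells 31 were higher with simvastatin, 19 were lower and 43 did not pass, where 23.0% of all tested probes were higher and 25.1% lower. In KURAMOCHI cells 18 were higher, 16 lower and 59 did not pass, where 14.0% of all tested probes were higher and 17.3% lower. Without replicate 1 of KURAMOCHI cells with simvastatin or either KURAMOCHI array with L-778123, 9 were lower there. Background correction by normexp moved the share of higher probes among all that passed in OVSAHO cells from 47.8% to 58.8%. Without normexp, the median log2 difference of the 93 list genes was 0.11 in OVSAHO and 0.053 in KURAMOCHI cells. Over all tested probes it was 0.014 and 0.00096. Both lines had 12 list genes higher and 8 lower. Another 3, namely RADIL, RAP1GAP and RASL11A, were higher in OVSAHO and lower in KURAMOCHI cells. These 3 were picked out after their values were seen, and the KURAMOCHI call of RAP1GAP lay just under the threshold (limma adjusted p = 0.0496).

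**Figure D3:**
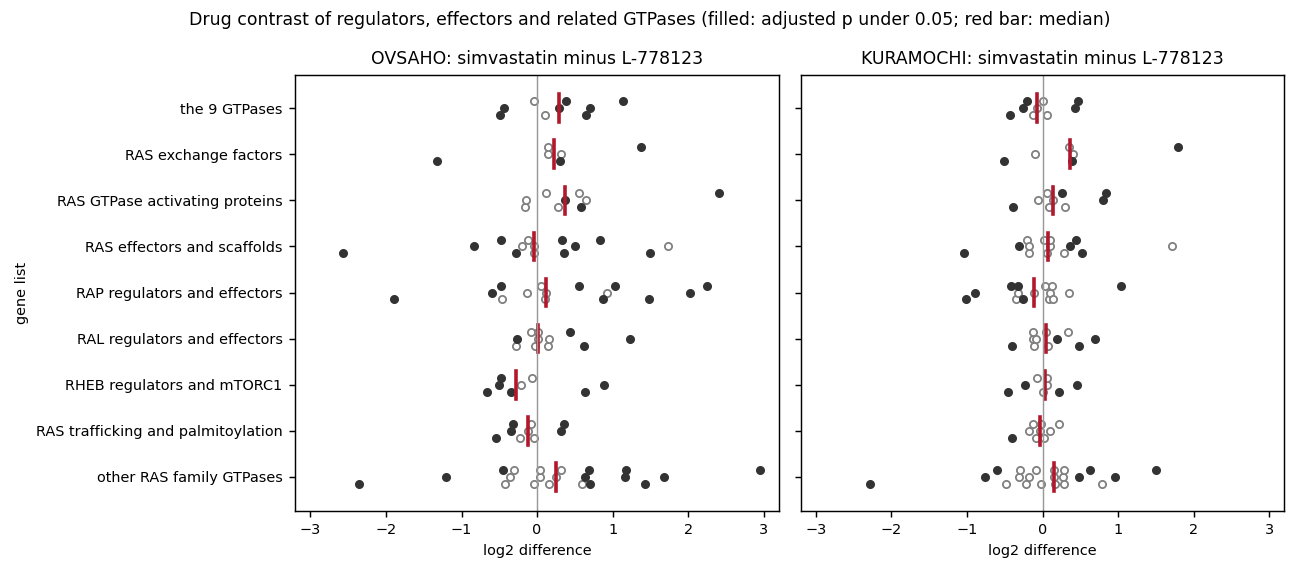
Log2 difference between simvastatin and L-778123 of each tested gene, in rows by list, in OVSAHO (left) and KURAMOCHI cells (right), with 1 point per gene, filled at an adjusted p under 0.05, and a red bar at the median of the list. In OVSAHO cells the points reach from -2.57 for PLCE1 to 2.95 for DIRAS1, and in KURAMOCHI cells more of the points are open.

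Of the 6 tested RAS exchange factors, 2 were higher and 1 lower in each line. In OVSAHO cells 1 was higher without replicate 1 or 2 with simvastatin or replicate 2 with L-778123. In KURAMOCHI cells 1 was higher without replicate 1 with simvastatin or either array with L-778123, and 0 were lower without replicate 1 with L-778123. The share of all tested probes that passed was 48.1% in OVSAHO and 31.4% in KURAMOCHI cells. RASGRP1, an exchange factor that responds to diacylglycerol, was higher in KURAMOCHI cells, at a log2 difference of 1.79 (standard error 0.11, limma adjusted p = 4.02e-04), and at 0.14 in OVSAHO cells it did not pass. Background correction by normexp lowered the KURAMOCHI value to 0.78. RASGRP2, which acts mainly on RAP1, was higher in OVSAHO cells, at 1.37 (limma adjusted p = 3.30e-04), and at 0.35 in KURAMOCHI cells it did not pass at its brightest probe (limma adjusted p = 0.0588), while of its other probes 1 did, at 0.34 (limma adjusted p = 0.0344), and 1 did not, at 0.40 (limma adjusted p = 0.173). RASGRP4 was lower in both lines, at -1.32 in OVSAHO and -0.51 in KURAMOCHI cells, the latter at -0.29 with normexp and lost without replicate 1 of KURAMOCHI cells with L-778123, at -0.43 (limma adjusted p = 0.0503).

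Of the 9 tested RAS GTPase activating proteins, 3 were higher and 0 lower in OVSAHO cells, and 3 were higher and 1 lower in KURAMOCHI cells. Without either KURAMOCHI array with simvastatin, 5 were higher in OVSAHO cells, and 0 were lower in KURAMOCHI cells without replicate 1 with simvastatin or either array with L-778123. Among all tested probes, 48.1% passed in OVSAHO and 31.4% in KURAMOCHI cells. RASA3 had levels of 3.16 and 3.26 in OVSAHO cells with simvastatin and 0.87 and 0.75 with L-778123, which is 5.30-fold. In KURAMOCHI cells it was at 2.30 and 2.31 with simvastatin and 1.45 and 1.46 with L-778123. It was therefore higher with simvastatin in both lines, at log2 differences of 2.41 and 0.84 (limma adjusted p = 2.03e-05 and 7.92e-04). RASA4, which has a nearly identical copy in the genome that its probe may also bind, was higher at 0.58 and 0.80. RASAL2 was lower in KURAMOCHI cells at -0.39 (limma adjusted p = 0.0178), a call lost without replicate 1 with simvastatin or either KURAMOCHI array with L-778123 (limma adjusted p = 0.0569 to 0.0868), and its other probe did not pass, at -0.38 (limma adjusted p = 0.0836).

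Of 14 tested RAS effectors and scaffolds, 5 were higher and 4 lower in OVSAHO cells, and 3 were higher and 2 lower in KURAMOCHI cells. With each array left out, 1 to 2 were higher and 1 to 2 lower in KURAMOCHI cells, with 1 higher without replicate 1 with L-778123, and 1 lower without any array with L-778123 of either line or replicate 1 of KURAMOCHI cells with simvastatin. Passing probes made up 48.1% of all tested in OVSAHO and 31.4% in KURAMOCHI cells. PLCE1, a phospholipase C that binds RAS and RAP, was lower in both lines, at -2.57 in OVSAHO (limma adjusted p = 2.72e-05) and -1.04 in KURAMOCHI cells (limma adjusted p = 8.08e-04), and another probe gave -2.70 and -1.15. RIN1, an effector that links RAS to RAB5, was higher at 1.49 and 0.53, the latter not called by the methods' test (adjusted p = 0.0762 from two-way analysis of variance and Tukey's test). RASSF1, a tumor suppressor with a RAS association domain, was higher at 0.83 and 0.36, and its KURAMOCHI call was lost without any one of the KURAMOCHI arrays (limma adjusted p = 0.0563 to 0.0587).

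Of 15 tested RAP regulators and effectors, 6 were higher and 3 lower in OVSAHO cells, and 1 was higher and 5 lower in KURAMOCHI cells, or 3 lower without any one KURAMOCHI array. Over all tested probes, 48.1% passed in OVSAHO and 31.4% in KURAMOCHI cells. RADIL, a RAP effector in cell adhesion, was at 2.77 and 2.84 in OVSAHO cells with simvastatin and 0.73 and 0.83 with L-778123. In KURAMOCHI cells RADIL was at -2.85 and -3.09 with simvastatin and -1.93 and -2.23 with L-778123. The drugs were thus ordered in opposite ways, with log2 differences of 2.03 (limma adjusted p = 1.58e-04) and -0.89 (limma adjusted p = 0.00524), the latter -0.49 with normexp and not called by the methods' test (adjusted p = 0.0698 from two-way analysis of variance and Tukey's test). SIPA1L2, of a family of GTPase activating proteins for RAP, was higher in OVSAHO cells at 2.25 (limma adjusted p = 2.27e-05) and did not pass in KURAMOCHI cells at 0.14. RAPGEF3, the cAMP-activated exchange factor EPAC1, was lower in OVSAHO cells at -1.90, or -1.35 at another probe. In KURAMOCHI cells its probes disagreed, at -0.41 (limma adjusted p = 0.00531) and -0.020 (limma adjusted p = 0.904).

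Of 11 tested RAL regulators and effectors, 3 were higher and 1 lower in each line. Without replicate 1 with L-778123, 2 were lower in OVSAHO cells, and 0 were lower in KURAMOCHI cells without either array with simvastatin or replicate 2 with L-778123. As a share of all tested probes, 48.1% passed in OVSAHO and 31.4% in KURAMOCHI cells. RALGDS, the exchange factor through which RAS activates RAL, was higher at 1.23 in OVSAHO (standard error 0.054, limma adjusted p = 5.63e-05) and 0.48 in KURAMOCHI cells (limma adjusted p = 0.0023). RGL2, of the same family, was higher at 0.62 and 0.69. RALGPS2, a RAL exchange factor that does not need RAS, was higher in OVSAHO cells at 0.44 (limma adjusted p = 0.0365) and did not pass in KURAMOCHI cells at 0.34. The OVSAHO call was lost without any one OVSAHO array or either KURAMOCHI array with simvastatin (limma adjusted p = 0.0507 to 0.154), and the KURAMOCHI value passed without replicate 2 with L-778123, at 0.50 (limma adjusted p = 0.0453). Thus RALA, RALGDS and RGL2 were higher with simvastatin in both lines.

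Of 8 tested RHEB regulators and members of mTORC1 and its substrates, 2 were higher and 4 lower in OVSAHO cells, and 2 of each direction were found in KURAMOCHI cells, where 1 was lower and 1 higher without any one KURAMOCHI array, and 1 higher without either OVSAHO array with simvastatin. All tested probes passed at a share of 48.1% in OVSAHO and 31.4% in KURAMOCHI cells. TSC1, TSC2 and TBC1D7 form the complex that switches RHEB off. TSC2, its catalytic subunit, was higher at 0.89 in OVSAHO (limma adjusted p = 1.50e-04) and 0.46 in KURAMOCHI cells (limma adjusted p = 0.00299). TSC1 was higher in OVSAHO cells at 0.63 (limma adjusted p = 9.07e-04) and did not pass in KURAMOCHI cells at 0.053, and TBC1D7 was lower in both, at -0.66 and -0.46. RHEB itself was lower in both lines in the same fit, though its KURAMOCHI call was lost with no filter on dim probes (limma adjusted p = 0.177). RHEB and TSC2 thus lay on opposite sides of 0, while TBC1D7 lay on the side of RHEB.

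Of 9 tested trafficking and palmitoylation genes, 2 were higher and 3 lower in OVSAHO cells, and 0 were higher and 1 lower in KURAMOCHI cells. Beside these counts, 48.1% of all tested probes passed in OVSAHO and 31.4% in KURAMOCHI cells. LYPLA1, a thioesterase that removes palmitate, was lower in OVSAHO cells at -0.55 (limma adjusted p = 0.00271). In KURAMOCHI cells LYPLA1 did not pass at -0.18, while its other probe was lower at -0.29 (limma adjusted p = 0.0221). RAP1GDS1, a chaperone of prenylated small GTPases, was higher in OVSAHO cells at 0.35 and at 0.018 in KURAMOCHI cells it did not pass. PDE6D, which carries farnesylated RAS between membranes, was lower in KURAMOCHI cells at -0.40 (limma adjusted p = 0.0114), and did not pass in OVSAHO cells at -0.083. The KURAMOCHI call of PDE6D was lost without replicate 1 with simvastatin or either array with L-778123 (limma adjusted p = 0.0515 to 0.0587), which left 0 genes of the list lower.

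Of 21 other tested RAS family GTPases, 8 were higher and 3 lower in OVSAHO cells, and 4 were higher and 3 lower in KURAMOCHI cells. The shares of all tested probes that passed were 48.1% and 31.4% in these lines. DIRAS1, a relative of the imprinted tumor suppressor DIRAS3, was higher in OVSAHO cells at 2.95 (standard error 0.20, limma adjusted p = 1.81e-04), or 7.71-fold. In KURAMOCHI cells DIRAS1 did not pass at 0.28, and it passed at 0.57 without replicate 2 with L-778123 (limma adjusted p = 0.0361). RASL11B was lower in OVSAHO cells at -2.35 (limma adjusted p = 3.99e-05) and did not pass in KURAMOCHI cells at -0.22. RASD1, which is induced by dexamethasone, was higher in both lines, at 1.68 and 0.63.

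**Figure D4:**
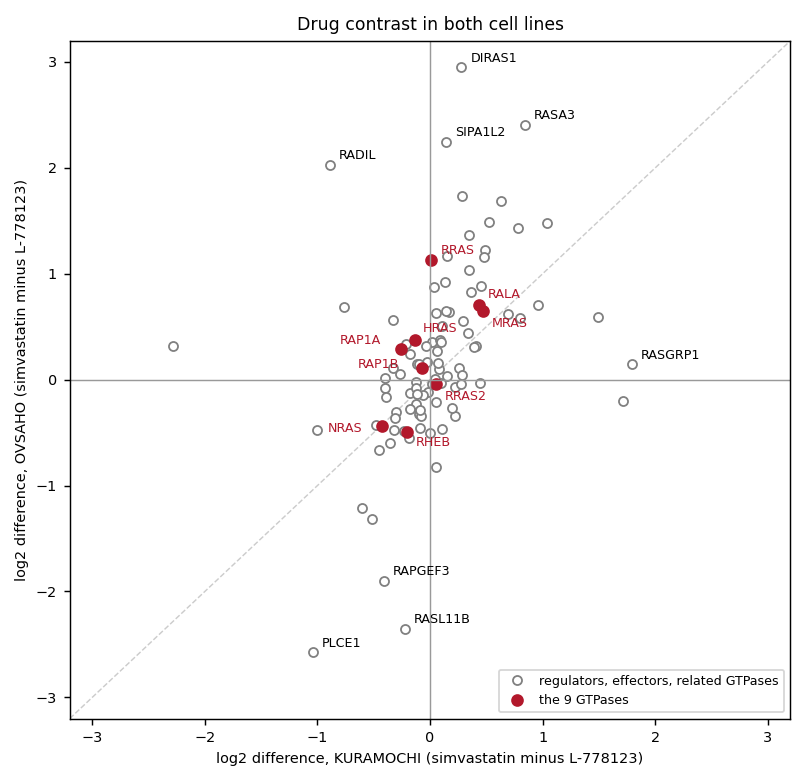
Log2 difference between simvastatin and L-778123 in KURAMOCHI cells (x axis) against OVSAHO cells (y axis), with filled red points for the 9 GTPases, open points for the tested genes of the lists, solid lines at 0 and a dashed line where both are equal. On the y axis and then the x axis, RADIL lies at 2.03 and -0.89, PLCE1 at -2.57 and -1.04, and RRAS at 1.13 and 0.011.

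RRAS had the largest difference between the drugs among the 9 genes. Over the 8 arrays, the genes whose levels followed it most closely among 19292 probes were TMEM54, ALPG, PLBD2, CATSPERQ and TICAM1, at Pearson correlations of 0.998, 0.998, 0.998, 0.996 and 0.995. The 8 arrays are 4 groups of 2 and were measured together on 1 slide, so these values describe a likeness between group means.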

How the data were processed

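Total RNA was labeled with 1 dye and hybridized to SurePrint G3 Human Gene Expression arrays. The authors scanned them and deposited the intensity of each spot from Feature Extraction 11.5.1.1, corrected for background within the array and not normalized between arrays. Their processed table of these arrays, a linear intensity, served as an alternative. Groups and replicate numbers followed the sample titles.

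Control spots were dropped, as were outlier spots, 58 to 99 on an array, which removed 39 of 58201 probes. The deposited processed signal was divided by the 75th percentile of its array, log2 was taken and spots of a probe were averaged. A probe was tested if some group had it well above background on both its arrays, which kept 33753 probes. The test was limma 3.58.1, run in R 4.3.3 with lmFit and eBayes (1 mean per group, spread shared by the 4 groups, Benjamini-Hochberg adjustment), which was tested on simulated data. RefSeq accessions gave a symbol to 24782 of 50096 identifiers, covering 31079 probes. Probe sequences were not used here, so binding to related transcripts was not checked. The number of arrays limits the precision.

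The 9 genes, the 8 lists and the tests were chosen with earlier results of these data known. Besides the 9, the genes named are, from each list, up to 3 with the largest difference between drugs in either line among those that passed in that line and whose brightest probe was well above background on all arrays, and the 5 genes most like the GTPase with the largest difference. Exceptions are named where they occur. An item that the lists hold is not reported here. Alternatives were other filters, normexp with an offset of 50 on the spot median, quantile normalization, a 75th percentile taken over bright probes, the authors' table, fits on the compared groups only, a block for the replicate number, Tukey's test after two-way analysis of variance, as in the methods, the mean over probes of a gene, the 2-fold threshold, and each array left out. Tukey's test served for the drug contrast in each line, and the F test of that analysis of variance for the other comparisons. Leaving out an array leaves 1 array in a group, which is then assumed to vary like the others. Plots used matplotlib 3.10.9 and Python 3.11.15.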

Additional observations from a re-analysis of the deposited data

Results flagged for a closer look

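The log2 difference between simvastatin and L-778123 was not the same in both cell lines, by a direct test of that difference, for 3 of the 9 GTPases and 16 of the 24 named genes of the lists, which were named for a large difference between the drugs. Over all 93 tested list genes, 24 were higher and 12 lower by this test, and of all tested probes 22.9% passed. The values are OVSAHO minus KURAMOCHI. Among the GTPases, the difference was 1.12 for RRAS (limma adjusted p = 0.00245), 0.55 for RAP1A (limma adjusted p = 0.00786) and 0.51 for HRAS (limma adjusted p = 0.00895).

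Among regulators and effectors of RAS, the exchange factors RASGRP1, RASGRP2 and RASGRP4 differed by -1.65, 1.02 and -0.81, and the GTPase activating protein RASA3 by 1.56. The effectors RIN1, RASSF1 and PLCE1 differed by 0.97, 0.47 and -1.53. Among genes around RAP, the exchange factor RAPGEF3 differed by -1.49, SIPA1L2 by 2.11 and RADIL by 2.92. The RAL exchange factor RALGDS differed by 0.74, and TSC1 and TSC2, which restrain RHEB, by 0.58 and 0.43. Among other family members, RASD1 differed by 1.05, DIRAS1 by 2.67 and RASL11B by -2.13. The adjusted p from limma over these list genes ranged from 3.15e-04 for SIPA1L2 to 0.0225 for RASSF1. RADIL was also the one of them that passed in opposite directions in the lines, though not by the methods' test (adjusted p = 0.0698 in KURAMOCHI cells), and the position of each line on the slide, which cannot be told apart from the line, was not tested.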

How the results depend on the processing

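With a 2-fold change asked for as well, the GTPases that passed were 1 in OVSAHO, 0 in KURAMOCHI, 1 for the difference of contrasts and 0 between the lines. The list genes, higher and lower, were then 13 and 5, 3 and 3, 9 and 4, and 15 and 20. In KURAMOCHI cells, 3 GTPases passed with no filter on dim probes and 3 with the groups compared alone, and with each array left out 3 to 4 did. By the methods' test, the KURAMOCHI calls of RADIL (0.0698), RIN1 (0.0762), RASGRP4 (0.0886), PDE6D (0.0738), RASSF1 (0.0659) and RASAL2 (0.117) and the OVSAHO call of RALGPS2 (0.244) were lost. In the other comparisons the GTPases that passed were 7, 3 and 6 to 7 with an array left out. List genes lower in KURAMOCHI cells were 6 by the methods' test and 9 to 15 with an array left out, and those lower in the difference of contrasts were 6 with no filter. RHEB in KURAMOCHI cells lost its call in 12 alternatives, at adjusted p values of 0.177 with no filter, 0.0958 with the groups compared alone and 0.10 by the methods' test besides those with an array left out. RAP1A in KURAMOCHI cells lost its call with no filter (0.0949) and with the groups compared alone (0.0558). The difference of contrasts of RHEB passed in limma with a stricter filter (0.0405), normexp (0.0302), quantile normalization (0.0427) and the authors' table (0.0440). It also passed by the F test of the analysis of variance (adjusted p = 0.0387).

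The differences that changed sign had not passed. RRAS2 between the lines became -0.057 with normexp, -0.038 with quantile normalization, -0.00020 with the percentile over bright probes, -0.039 with the authors' table, -0.0016 with the mean over its probes and -0.020 to 0.022 with an array left out. In OVSAHO cells RRAS2 became 0.017 with quantile normalization and 0.016 with the authors' table, where RAP1B in KURAMOCHI cells became 0.0072 and 0.0084. RAP1GDS1 in KURAMOCHI cells became -0.038 with normexp. The difference of contrasts of NRAS became 0.079 with the mean over its probes. With an array left out, NRAS in that comparison ranged from -0.069 to 0.044, RRAS in KURAMOCHI cells from -0.027 to 0.050, PDE6D in OVSAHO cells from -0.18 to 0.010, and in KURAMOCHI cells RAP1GDS1 from -0.032 to 0.068 and DIRAS1 from -0.015 to 0.57. Over all alternatives, 578 values of the 9 GTPases kept direction and side of the threshold, 27 lost and 5 gained a call, and 20 changed sign. For the 24 named genes of the lists, which were picked for a large difference between the drugs, the counts were 822, 29, 9 and 4. They cover the drug comparison within each line only. The cause was not tested.

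Same-numbered arrays did not deviate together, since the correlation of replicate differences between groups was 0.000848 to 0.0555. With the replicate number as a block, 7 GTPases passed in OVSAHO, 4 in KURAMOCHI, 3 for the difference and 7 between the lines. RHEB in KURAMOCHI cells (adjusted p = 0.0724) and RALGPS2 in OVSAHO cells (0.0506) lost their calls under the block. The fit on the groups compared alone was not run for the last 2 comparisons, which use all groups.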

Other observations

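Some list genes that the naming rule left out were read after their values were seen. Around RHEB, its paralog RHEBL1 was higher with simvastatin in both lines, at log2 differences of 1.16 in OVSAHO and 0.48 in KURAMOCHI cells (limma adjusted p = 9.10e-05 and 0.00364), where RHEB was lower. RPTOR, the scaffold of mTORC1, was lower at -0.48 and -0.23 (limma adjusted p = 9.66e-04 and 0.0223). RALB, the paralog of RALA, was higher in OVSAHO cells at 0.64 (limma adjusted p = 5.72e-04) and did not pass in KURAMOCHI cells at 0.16. SIPA1L1, of a family of GTPase activating proteins for RAP, was lower at -0.48 and -1.01 (limma adjusted p = 0.00124 and 2.99e-04), while its relative SIPA1L2 was higher in OVSAHO cells.

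Of the genes that were higher in OVSAHO and lower in KURAMOCHI cells, RAP1GAP was at 0.56 in OVSAHO and -0.33 in KURAMOCHI cells (limma adjusted p = 0.00545 and 0.0496), and RASL11A at 0.68 and -0.77 (limma adjusted p = 0.00476 and 0.00567). The KURAMOCHI call of RAP1GAP lay just under the threshold of 0.05. The calls of the genes read here were not followed through the alternatives one by one.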
